A study of Mus musculus with 6 samples.

Results

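Genes annotated to lipid, fatty acid and sterol metabolism were compared between embryonic and adult mice in the choroid plexus of the lateral ventricles. A transcript cluster, the array's unit for a gene, was taken as a member when its biological process annotation held 1 of 5 phrases, namely lipid metabolic, fatty acid, cholesterol, sterol biosynthetic or lipid biosynthetic. Clusters annotated to mitochondria and clusters of the Slc, Abc, Cyp, Gst, Mgst, Ugt, Sult and Aldh families were left out. This gave 90 members of 3956 clusters in the joined tables, from 119 whose annotation matched. Of the 90 members, 49 were in the gene-level table and 41 were in the splicing index table alone, and 4 carried more than 1 gene symbol.

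The samples were 3 arrays of E15 plexus, each from 30 pooled embryos of mixed sex, and 3 arrays of adult plexus, each from 10 pooled females, with pool sizes as the labels give them (the study's supplementary checklist gives other sizes). Age and sex composition therefore cannot be told apart. The animals were Swiss Webster mice for which no treatment or engineered genotype is named, and the labels give no age in days or weeks for the adults. The whole plexus was excised, so epithelium, vessels and stroma were all sampled although the design text speaks of epithelial cells, and in such bulk RNA fewer cells of a type and less RNA per cell cannot be told apart. Each cluster has 1 merged log2 value per age, centred near 0 for that cluster, so values of different genes cannot be set against each other as levels. Differences are on the log2 scale with E15 subtracted from the adult, so that a positive one means more in the adult, and a difference of 1 in either direction is a fold of 2. No spread between arrays, standard error or test could be computed from merged values. A member is called higher at an age where the fold was at least 2.

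Cells make fatty acids in the cytosol from acetyl units, lengthen and desaturate them at the endoplasmic reticulum, and build them into phospholipids, sphingolipids and stored glycerides. Cholesterol is made from the same acetyl units through a long chain of sterol intermediates, and cells also take it up from lipoproteins. The choroid plexus epithelium has a large apical membrane and secretes the cerebrospinal fluid (CSF).

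Members were higher in the adult more often than at E15. In the adult plexus 39 of 90 members (43.3%) were higher, with a Wilson 95% interval of 33.6 to 53.6% that covers counting error over clusters only, while the share over all 3956 clusters was 22.9%. At E15 10 members (11.1%) were higher, against 24.4% of all clusters. The remaining 41 members were less than 2-fold apart. The median difference of the 90 members was 0.81, a fold of 1.75, while that of all clusters was -0.16. It was 0.33 over the 46 members left when annotations inferred electronically were not counted. A positive difference of any size was found for 61 members (67.8%) and for 45.9% of all clusters. Within the gene-level table, which holds only clusters past the authors' corrected p of 0.05 and 2-fold, 39 of 49 members (79.6%) were higher in the adult against 48.8% of its 1805 clusters. Among the 41 members of the splicing index table alone, 22 had a positive difference and 19 a negative one, with a median of 0.03. At a 4-fold limit 7 of the 90 members were higher in the adult, against 5.03% of all clusters, and 1 at E15, against 5.84%. At a 1.5-fold limit 47 members were higher in the adult and 16 at E15, against 31.5% and 36.8% of all clusters. At a 3-fold limit 13 were higher in the adult, where the share of all clusters was 8.87%, and 1 at E15, where it was 9.98%. Of the 14 members past 3-fold in the gene-level table, 13 were higher in the adult, against 46.7% of its 730 clusters past 3-fold. The median fold was 2.57 among the members higher in the adult and 2.54 among those higher at E15.

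**Figure D1:**
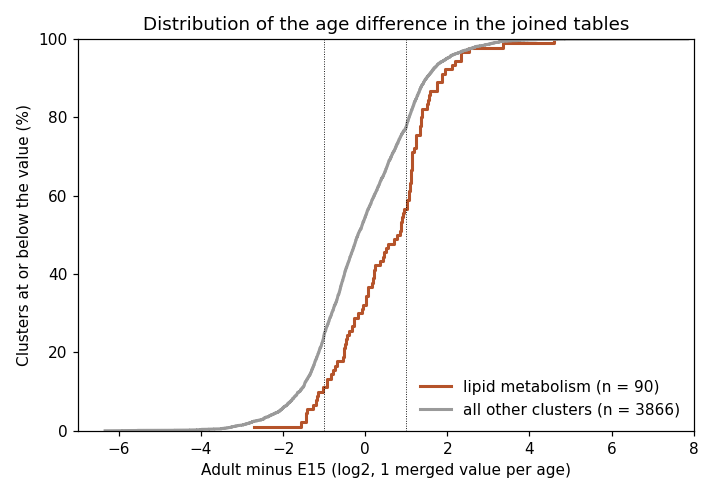
Cumulative share of clusters (%, vertical axis) at or below each adult minus E15 difference (log2, horizontal axis), for the 90 members and for the 3866 other clusters of the joined tables, with dotted lines at 2-fold. The curve of the members lies to the right over most of the range, and the curves meet among the largest positive differences.

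Of the 39 members higher in the adult, 32 belonged to 1 of the 10 role groups used below, and sphingolipid metabolism was the only group without one. Scd1, the stearoyl-CoA desaturase that turns saturated into monounsaturated fatty acids, had the widest difference of all members. The merged value of Scd1 was 2.27 in the adult and -2.32 at E15, a difference of 4.59 and a fold of 24.1, which placed it 6th among the 1805 clusters of the gene-level table in order of adult excess. Pla2g5, a secreted phospholipase A2, followed with 1.62 in the adult and -1.73 at E15, a fold of 10.2 and rank 27. Members just inside the 2-fold limit were Agpat9 with a difference of 1.01 and B3gnt5 with -1.03, and among those just outside it were Ptges2 with 0.95 and Pafah1b3 with -0.92.

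**Figure D2:**
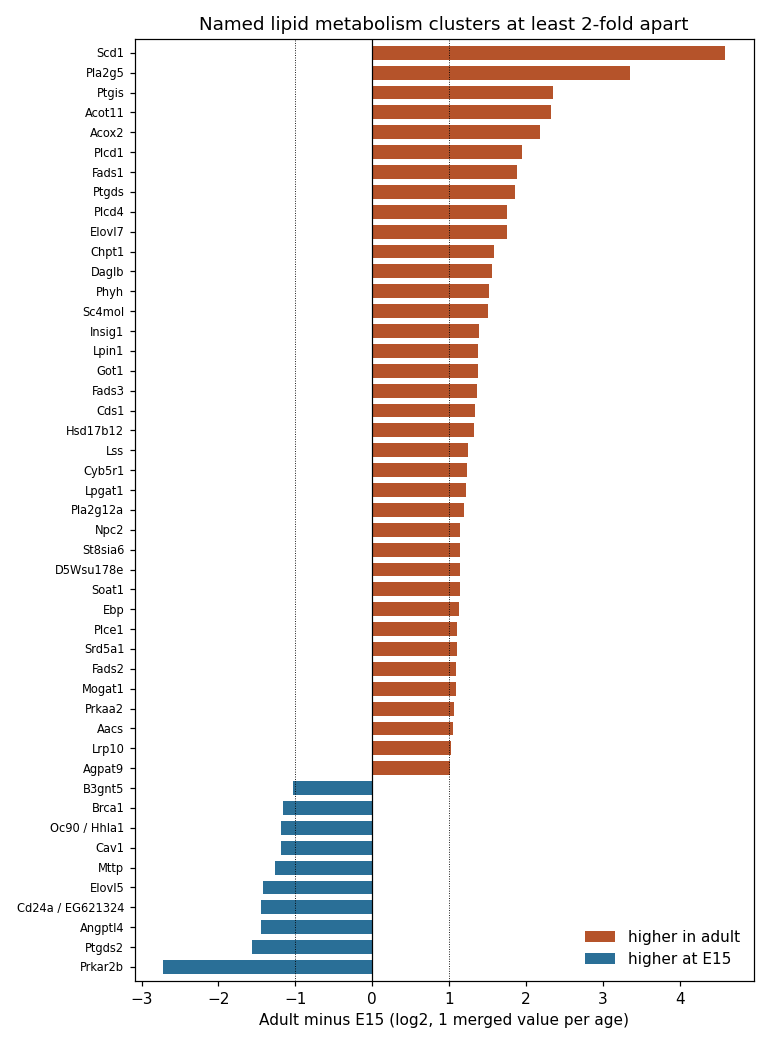
Adult minus E15 difference (log2) of the named members at least 2-fold apart, ordered by size, with dotted lines at 2-fold. The members higher in the adult run from Scd1 (4.59) to Agpat9 (1.01), and the 10 higher at E15 from B3gnt5 (-1.03) to Prkar2b (-2.72).

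Sterol synthesis had the narrowest range of differences among the groups with more than 1 member, from 0.88 to 1.5. Its 4 members all had a positive difference, with a median of 1.18, and 3 were called higher in the adult. Sc4mol, the methylsterol monooxygenase that takes methyl groups off early sterols, had a value of 0.78 in the adult and -0.73 at E15, a fold of 2.84. Lss, the lanosterol synthase that closes the sterol rings, had 0.63 and -0.62, a fold of 2.37. Ebp, a sterol isomerase late in the pathway, had 0.62 and -0.50, a fold of 2.18. Nsdhl, which acts in the same demethylation steps as Sc4mol, differed by 0.88, a fold of 1.84, and was not called. Insig1, the endoplasmic reticulum protein that holds back the sterol-regulated transcription factors SREBP when sterols are plentiful, was also higher in the adult, with 0.69 against -0.69 and a fold of 2.61.

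The promoter windows of these 5 genes are given because they are the sterol branch of the members and its feedback regulator. Each runs 300 bases across the annotated start, from 250 bases before it, 5′ to 3′ on the gene's strand, from RefSeq on GRCm38.p6. Capitals mark CCAAT (the element bound by NF-Y) on either strand, the E-box CACGTG, and TCACNCNAC, a loose form of the sterol regulatory element.
Insig1, chr5:28071162-28071461, plus strand: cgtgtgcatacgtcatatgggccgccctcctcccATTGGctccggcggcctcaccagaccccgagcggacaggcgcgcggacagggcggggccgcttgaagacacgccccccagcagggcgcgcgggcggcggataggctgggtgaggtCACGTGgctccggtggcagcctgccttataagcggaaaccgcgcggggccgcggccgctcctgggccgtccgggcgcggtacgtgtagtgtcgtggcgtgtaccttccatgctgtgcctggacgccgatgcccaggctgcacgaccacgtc
Sc4mol (Msmo1 in RefSeq), chr8:64733529-64733828, minus strand: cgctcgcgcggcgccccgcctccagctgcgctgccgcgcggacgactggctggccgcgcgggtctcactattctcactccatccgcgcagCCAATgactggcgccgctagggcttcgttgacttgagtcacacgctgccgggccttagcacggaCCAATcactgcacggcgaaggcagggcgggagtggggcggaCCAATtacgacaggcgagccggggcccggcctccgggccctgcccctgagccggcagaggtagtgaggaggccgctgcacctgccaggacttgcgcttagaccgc
Lss, chr10:76531355-76531654, plus strand: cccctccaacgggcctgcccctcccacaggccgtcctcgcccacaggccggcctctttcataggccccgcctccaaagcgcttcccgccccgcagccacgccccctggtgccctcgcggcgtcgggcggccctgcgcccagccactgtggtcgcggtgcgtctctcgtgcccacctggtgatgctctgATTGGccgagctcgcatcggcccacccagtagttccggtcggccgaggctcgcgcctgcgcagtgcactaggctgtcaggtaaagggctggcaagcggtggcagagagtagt
Ebp, chrX:8193463-8193762, minus strand: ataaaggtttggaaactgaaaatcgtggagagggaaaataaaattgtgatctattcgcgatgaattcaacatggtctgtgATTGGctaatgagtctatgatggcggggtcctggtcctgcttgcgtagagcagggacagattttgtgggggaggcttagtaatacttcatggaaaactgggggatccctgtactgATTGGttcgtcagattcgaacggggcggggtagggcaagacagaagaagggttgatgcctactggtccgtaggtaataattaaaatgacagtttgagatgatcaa
Nsdhl, chrX:72918271-72918570, plus strand: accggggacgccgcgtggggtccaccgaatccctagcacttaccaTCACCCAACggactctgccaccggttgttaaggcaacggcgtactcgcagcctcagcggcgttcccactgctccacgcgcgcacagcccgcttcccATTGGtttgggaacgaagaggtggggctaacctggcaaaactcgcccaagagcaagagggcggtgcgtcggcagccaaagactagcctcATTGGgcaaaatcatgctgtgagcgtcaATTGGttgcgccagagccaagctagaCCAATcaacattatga
All 5 windows held CCAAT. In Sc4mol it began 160, 96 and 55 bases before the start, all on the gene's own strand. In Ebp it lay 170 and 55 bases before the start and in Lss 62 bases before it, in both cases on the opposite strand. Nsdhl held 4 copies and was the only one of the 5 with TCACNCNAC, 205 bases before its start. Insig1 held CCAAT 216 bases and CACGTG 101 bases before its start. Over all members, 71 had at least 1 window, 89 windows in all, found by symbol (6 genes through another symbol). CCAAT was present in 36 of the 89 windows (40.4%), in 20 of the 40 windows of members higher in the adult (50.0%), in 2 of 9 of those higher at E15, and in 37.4% of 32851 windows of all genes. CACGTG was present in 6 member windows (6.74%) against 7.15% of all, in 2 of the 40 windows of members higher in the adult and in 2 of the 9 of those higher at E15 (Elovl5 and Prkar2b). The GC box GGGCGG, not in capitals above, was present in 51 member windows (57.3%) against 35.7% of all, in 22 of the 40 windows of members higher in the adult and in 4 of the 9 of those higher at E15. The sterol element TCACNCCAC was present in 2, those of B3gnt5 and Pla2g12a, against 1.24% of all windows, and the loose form, which contains it, in 3 against 2.7%. A match gives the letters only, and binding was not measured.

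In fatty acid synthesis, desaturation and elongation 6 of 10 members were higher in the adult, 1 was higher at E15 and 3 were under 2-fold, with a median difference of 1.21. Besides Scd1, all 3 members of the Fads family were in the adult group. Fads1, which desaturates polyunsaturated fatty acids, had 0.96 in the adult and -0.91 at E15, a fold of 3.67. Fads3, a related desaturase, had a difference of 1.36 (fold 2.57), and Fads2, which acts before Fads1 on the same route, 1.09 (fold 2.13). The elongases went in different directions. Elovl7 had 0.90 in the adult and -0.85 at E15, a fold of 3.35, while Elovl5, which lengthens polyunsaturated chains, had -0.74 in the adult and 0.68 at E15, a fold of 2.68 the other way. Elovl2, which works on still longer polyunsaturated chains, also had a negative difference, -0.84, under 2-fold. Hsd17b12, the reductase of the elongation cycle, differed by 1.32 (fold 2.5). Among the members, the enzymes that begin the synthesis were nearly level between the ages. Fasn, fatty acid synthase, differed by -0.07 and Acaca, the cytosolic acetyl-CoA carboxylase, by -0.18, both from the splicing index table.

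Fatty acid activation and peroxisomal oxidation had 4 members, of which 3 were higher in the adult. Acot11, an acyl-CoA thioesterase, had 1.20 in the adult and -1.12 at E15, a fold of 5.01. Acox2, a peroxisomal oxidase for bile acid intermediates, had 1.16 and -1.03, a fold of 4.55. Phyh, which starts the breakdown of phytanic acid in peroxisomes, had 0.70 and -0.82, a fold of 2.86. Acot7, another thioesterase, differed by -0.79 and was not called.

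Glycerolipid and phospholipid synthesis had 9 members, of which 6 were higher in the adult and 0 at E15, with a median difference of 1.08. Chpt1, the cholinephosphotransferase that completes phosphatidylcholine, had 0.91 in the adult and -0.67 at E15, a fold of 3.01. Lpin1, the phosphatidate phosphatase that supplies diacylglycerol, had a fold of 2.60 and Cds1, which instead turns phosphatidate into CDP-diacylglycerol, a fold of 2.53. The acyltransferases Lpgat1 (1.22), Mogat1 (1.08) and Agpat9 (1.01) completed the 6. Ptdss1, a phosphatidylserine synthase, differed by 0.47, Agpat5 by 0.22, and Lpcat1, which remodels phosphatidylcholine, by -0.75, all under 2-fold.

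Of 8 lipases and phospholipases, 6 were higher in the adult and 0 at E15, with a median difference of 1.37. After Pla2g5 came phospholipases C, which split inositol phospholipids. Plcd1 had 0.97 in the adult and -0.98 at E15, a fold of 3.85, and Plcd4 had 0.97 and -0.78, a fold of 3.36. Plce1 differed by 1.11 (fold 2.15). Daglb, a diacylglycerol lipase of endocannabinoid synthesis, had a fold of 2.94, and Pla2g12a, another secreted phospholipase A2, of 2.28. The phospholipase C Plcg1 differed by -0.33 and the related Plcl2 by -0.51, and neither was called.

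Prostaglandin synthesis held 4 members with differences on both sides. Ptgis, prostacyclin synthase, had 1.21 in the adult and -1.14 at E15, a fold of 5.08. Ptgds, the lipocalin-type prostaglandin D synthase secreted into CSF, had 0.90 and -0.97, a fold of 3.63. Ptges2, a prostaglandin E synthase, differed by 0.95 and was not called, and Ptgs1, the cyclooxygenase that makes the precursor of all of them, by -0.69. Ptgds2, the hematopoietic prostaglandin D synthase under an older symbol and outside the fixed list, had -0.75 in the adult and 0.81 at E15, a fold of 2.94 toward E15. The pair of enzymes that make prostaglandin D2 thus differed in opposite directions.

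Lipoprotein receptors and sterol handling had members on both sides, with 3 of 7 members higher in the adult, 2 at E15 and a median difference of 0.35. Vldlr, a receptor for triglyceride-rich lipoproteins, differed by 0.35. Npc2, which passes cholesterol on in lysosomes, had a fold of 2.21, and its partner Npc1 a difference of 0.15. Soat1, which esterifies cholesterol for storage, had a fold of 2.20. Mttp, which loads lipid onto nascent lipoproteins, had -0.73 in the adult and 0.54 at E15, a fold of 2.41 toward E15. Cav1, the coat protein of caveolae that are abundant in endothelium, had -0.47 and 0.72, a fold of 2.28 toward E15.

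Of the 6 regulators, Insig1 and Prkaa2 were higher in the adult and the other 4 were under 2-fold. Prkaa2, a catalytic subunit of the AMP-activated kinase, differed by 1.06 (fold 2.08), whereas its partner subunits Prkag2 and Prkab1 had differences of -0.27 and -0.55. Ppara, a nuclear receptor for fatty acids, differed by 0.92 and Srebf1, the SREBP gene that drives fatty acid synthesis, by 0.50. Srd5a1, a steroid reductase and the only steroid hormone enzyme among the members, had a fold of 2.15 toward the adult. The fixed sphingolipid list was the group with no member past 2-fold, although B3gnt5 and St8sia6, glycolipid enzymes outside it, were called at E15 (-1.03) and in the adult (1.14). Its 6 members ranged from 0.71 (Degs2, which makes phytoceramide) to -0.49 (Ugcg, glucosylceramide synthase), with Lass5, a ceramide synthase, at 0.44 and Cln8 at 0.02 between them.

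**Figure D3:**
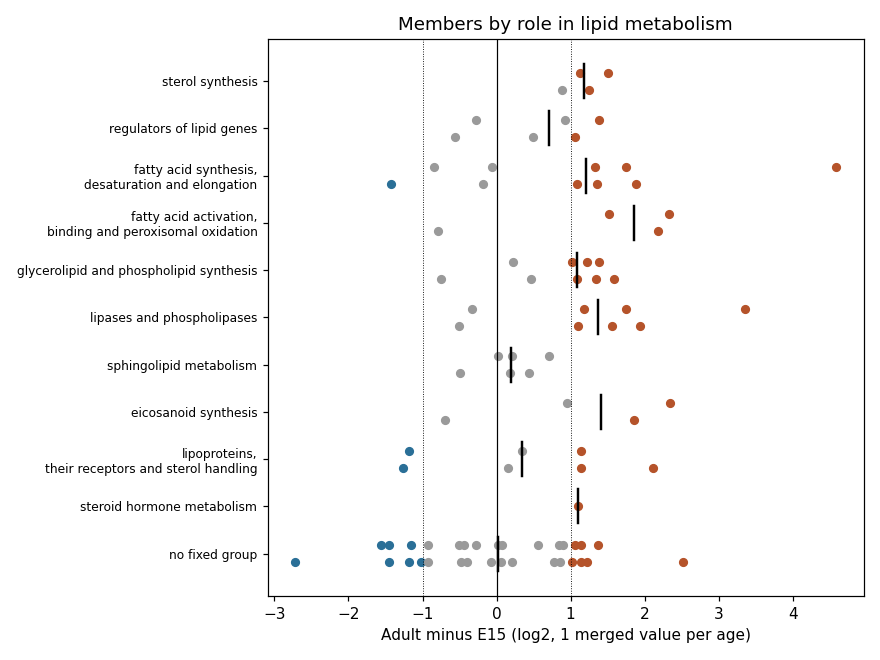
Adult minus E15 difference (log2) of the 90 members by role group, each point 1 member, offset vertically for sight only, with orange for at least 2-fold higher in the adult, blue for at least 2-fold higher at E15, grey for under 2-fold, and a black bar at the group's median. Medians run from 0.03 for members outside the fixed groups and 0.20 for sphingolipid metabolism to 1.85 for fatty acid activation and peroxisomal oxidation.

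Of the 10 members higher at E15, Elovl5, Mttp and Cav1 were in a role group, and the other 7, Ptgds2 among them, were among the 31 members outside the groups. Prkar2b, a regulatory subunit of protein kinase A, had -1.50 in the adult and 1.22 at E15, the widest difference toward E15 at -2.72 and a fold of 6.59. Angptl4, a secreted inhibitor of lipoprotein lipase, had -0.70 and 0.75, a fold of 2.73. Cd24a, a cell surface glycoprotein whose cluster also names EG621324, had the same fold of 2.73. Oc90, a phospholipase-like protein of otoconia, shared its cluster with Hhla1 and had a fold of 2.28. Brca1, a DNA repair gene that entered through its fatty acid annotation, had a fold of 2.23, and B3gnt5, which starts a series of glycosphingolipids, of 2.04, a call it lost when each age was re-centred on its median (difference -0.87). Outside the role groups 7 members were higher in the adult, among them Got1, an aspartate aminotransferase (fold 2.58), Cyb5r1 (2.34), the sialyltransferase St8sia6 (2.21), D5Wsu178e (2.20), Aacs, which feeds ketone bodies into lipid synthesis (2.08), and Lrp10 (2.03).

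Annotations that the choice of members did not use were then examined. Of 31 members annotated to the endoplasmic reticulum, 19 were higher in the adult and 2, Mttp and Elovl5, at E15, with a median difference of 1.10. Among the 136 other clusters with this annotation 37.5% were higher in the adult and 15.4% at E15. Of 8 members annotated to iron ion binding, an annotation carried by many desaturases and oxygenases, 7 were higher in the adult and the exception was Ptgs1, while 28.1% of the 64 other clusters so annotated were. Oxidoreductases had 10 of 18 members higher in the adult and 0 at E15, against 43.8% and 8.46% of 130 other clusters. Of 5 peroxisomal members, 2 were higher in the adult (Acox2 and Phyh) and the other 3 lay between -0.40 and 0.06, while 42.1% of the 19 other peroxisomal clusters were higher in the adult. In other compartments 5 of 12 Golgi members were higher in the adult and 2 at E15, against 30.9% and 17.1% of the other clusters there, and 4 of 13 nuclear members were higher in the adult and 1 at E15, against 11.4% and 30.4%. Of 4 members annotated to the plasma membrane, 0 were higher in the adult and 2 at E15, against 27.3% and 26.3% of 304 other clusters. Of 7 with receptor activity, 2 were higher in the adult and 0 at E15, against 24.3% and 27.6% of 337 others. Of 4 lysosomal members, 1 was higher in the adult, with a median difference of 0.20, against 55.6% of 36 other lysosomal clusters with a median of 1.07. Of 42 members integral to membrane, 24 were higher in the adult and 3 at E15, against 31.8% and 22.3% of 1090 others. The other annotations of the 16 looked up had, as higher in the adult, 6 of 16 extracellular members against 24.9% of the other clusters so annotated, 2 of 4 microsomal against 44.8%, 10 of 22 transferases against 26.5%, 7 of 16 hydrolases against 26.4%, 7 of 13 calcium binding members against 26.2% and 4 of 9 acyltransferases against 32.4%.

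Lipid genes that the annotation rule did not take were looked up in the same role lists, which hold 349 genes. Of these, 112 genes had an entry in 111 clusters, and 61 clusters were higher in the adult and 7 at E15, where the shares over all clusters were 22.9% and 24.4%. Of the 52 clusters that were no members, 29 were higher in the adult and 4 at E15. Ltc4s, leukotriene C4 synthase, had 1.89 in the adult and -1.93 at E15, a fold of 14.1. The acyl-CoA synthetase Acsl6 had a fold of 10.2 and Fabp3, a fatty acid binding protein, of 4.66. Acacb, the mitochondrial counterpart of Acaca, had a fold of 4.5, and the sterol enzyme Cyp51 of 2.15. With Cyp51 included, 4 of the 5 sterol synthesis genes with an entry were higher in the adult, out of 22 on the list. Of the sphingolipid genes outside the members, 8 of 13 clusters were higher in the adult, led by Sptlc3, a subunit of the enzyme that begins sphingolipid synthesis (fold 6.29), and the sphingosine phosphate phosphatase Sgpp2 (4.45). The clusters higher at E15 were Fabp7, the fatty acid binding protein of radial glia (fold 6.63), the ganglioside synthase St8sia1 (5.76), the cluster of Acot1 and Acot2 (2.53) and the arachidonate-releasing phospholipase Pla2g4a (2.07).

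Markers of the cell types that the dissected tissue could hold also differed between the ages. Of the 15 epithelial markers listed, 4 had an entry, and they differed by 4.78 (Kl), 0.32 (Trpm3), -1.02 (Foxj1) and -1.13 (Kcne2). Of 16 oligodendrocyte markers, 5 had an entry and 4 were higher in the adult, 1 of them itself a member and the others Mbp (2.09), Mal (1.12) and Mobp (1.05), while Cldn11 was 2-fold higher at E15. Of 12 neuronal markers, 6 had an entry and 5 were higher in the adult, between Gria2 (1.05) and Camk2a (2.66), while Nefm (-1.71) was higher at E15. At least 2-fold higher at E15 were 13 of 13 cell cycle genes (differences of -1.48 to -4.65), 5 of 5 neural progenitor markers, 4 of 4 endothelial markers, 8 of 9 of mesenchyme and matrix and 6 of 8 erythroid clusters, the other 3 of which also had negative differences. Of 5 macrophage markers, 1 was higher in the adult (Cd74, 3.16) and 1 at E15 (Mrc1, -2.36). The part of these cell types in the differences of the lipid genes was not tested.

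The splicing index, the authors' score for a change in exon use beyond that of the whole gene, was given for 75 of the 90 members, over 3 to 48 probe sets each. It was positive for 37 and negative for 38, and the table holds only sizes above 0.5. Its column is headed adult versus E15, but the scale and the sign convention are not stated. Prkar2b had the largest index at 2.99, followed by Plcd4 (-2.0), Chpt1 (-1.89), Brca1 (-1.84) and Acox2 (-1.74). Fasn, nearly level between the ages as a gene, had an index of 1.54, and Scd1 one of -0.84. Among the 34 members past 2-fold, the sign of the index was opposite to that of the gene's difference in 25 (73.5%), as it was in 77.5% of all 1285 such clusters. Among the 41 under 2-fold it was opposite in 21 (51.2%), against 53.3% of all. With the sign of the index turned, it would be opposite in 9 of the 34 and 20 of the 41.

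**Figure D4:**
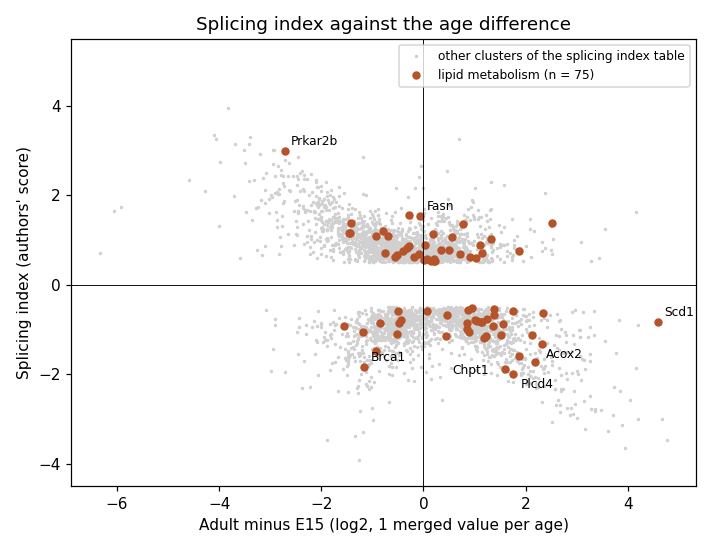
Splicing index (authors' score, vertical axis) against the adult minus E15 difference (log2, horizontal axis) for the 75 members with an index, in orange, and the other clusters of that table, in grey. With the sign as deposited, 25 of the 34 members past 2-fold lie in the upper left or lower right, and a turned sign would mirror the plot top to bottom. Prkar2b (-2.72, 2.99) has the largest index among the members.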

How the data were processed

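RNA of whole lateral ventricular plexus was amplified in 2 rounds and hybridised to 6 Affymetrix Mouse Exon 1.0 ST arrays. Per the labels, Affymetrix Power Tools and RMA were used. The authors took robust multi-array averages with a per-chip median, filtered on expression in all 3 replicates, and kept genes past an unpaired test (Benjamini-Hochberg corrected p of 0.05) and 2-fold. The log2 values the authors deposited are 1 merged value per age, so depth and signal over background are unknown. The splicing index, a score the authors made from PLIER exon values and an analysis of variance, was kept by them at sizes of at least 0.5. Their fold change and p-value columns were not used. Versions and the genome build are not given in the sources used here, so the files' clusters carry no coordinates.

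Both tables were joined on the cluster identifier with Python 3.11.15, and those absent from both are not analysed here. Differences, counts, medians and Wilson intervals at 95% (scipy 1.17.1) were computed, after the counting had been tested on simulated data. The members, 10 role lists and 9 marker lists were chosen with earlier results of these data known. Genes named were the 15 members with the largest difference each way, members of a role list, the 5 with the largest splicing index, those next to 2-fold, and others chosen after their values were seen, and a few members are counted but not reported by name here. Alternatives were fold thresholds of 1.5 and 3, re-centring, clusters with 1 symbol, 1 cluster per gene, annotation without electronic inference, the left-out classes kept, and the gene-level table alone. Promoter windows were matched by symbol to 73 of 95 member genes.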

Additional observations from a re-analysis of the deposited data

How the results depend on the processing

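The files hold 1 merged value per age, which limits every result: neither leaving out single replicates nor a replicate block was run. No error could be computed for a single difference, although clusters of the gene-level table had passed the authors' test. No paired analysis was possible because the columns hold no single arrays. Only clusters that passed the authors' limits are in the tables, so shares refer to those. At a fold of 3, 13 members were higher in the adult (13 of 14 in the gene-level table) and 1 at E15, against 8.87% and 9.98% of all clusters. At 1.5-fold 47 were higher in the adult and 16 at E15, against 31.5% and 36.8%. With annotations inferred electronically left out, 46 members remained, of which 17 were higher in the adult (17 of 23 in the gene-level table) and 6 at E15, with a median difference of 0.33. In all, 36 values moved by less than 1.5 times as a count or a fold and kept their direction. The 47 and the 0.33 just given were among them, as were 44 of 90 higher in the adult and 9 at E15 after re-centring. The same held for 51 and 12 of 111 with mitochondrial clusters kept, and 42 and 11 of 96 with the left-out families kept. Without re-centring 22.9% and 24.4% of all clusters were higher, and the shares after it were not computed. Some of the 36 could not have moved, since no member gene had a second cluster and no member of the splicing index table alone was past 2-fold. The role group medians could only shift by the amount that re-centring adds. Re-centring added 0.15 to each difference, which turned the sign of Fasn to 0.09 and of A3galt2 to 0.07, took Ptges2, Ppara, Tnxb, Nsdhl and Napepld past 2-fold and B3gnt5 to -0.87. Re-centring of the role groups and the omission of shared clusters from the splicing index counts were chosen after seeing the data.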

Other observations

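Clusters that matched the lipid annotation but were left out by the choice of members numbered 29. Of the 23 annotated to mitochondria, 12 (52.2%) were higher in the adult and 2 (8.70%) at E15, with a median difference of 1.00. Over all clusters the shares were 22.9% and 24.4%, and the median was -0.16. The long-chain acyl-CoA synthetases of the Acsl family with an entry were on the adult side, with differences of 3.35 for Acsl6, 1.29 for Acsl4 and 1.22 for Acsl1, as were Ehhadh, a bifunctional enzyme of peroxisomal oxidation (1.71), Elovl6, which lengthens palmitate (1.32), and the cluster of Cpt1b, a carnitine palmitoyltransferase (1.95). Of the 8 left out by family name, 3 were higher in the adult, namely Sult4a1 (3.07), Abca2 (1.80) and Cyp51 (1.10), and 1 at E15, the sterol exporter subunit Abcg8 (-1.76).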
